A study of Mus musculus with 11 samples.

Results

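Collagens are secreted or membrane-bound proteins whose alpha chains wind around each other into a helix, and they are the main structural proteins of the extracellular matrix. The genes described here are those of the collagen alpha chains, Col1a1 to Col28a1, chosen by symbol alone from the deposited gene tables. They number 44 of the 55401 genes listed, and all 44 are annotated as protein-coding. By the known structure of the proteins, 11 encode fibrillar chains, 6 encode the type IV chains of basement membranes and 27 encode the other kinds.

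Hippocampus RNA had been sequenced from 11 female F1 mice, with 1 polyadenylated, directional library per mouse. The mice came from reciprocal crosses of BL6, a laboratory strain, with CAST, a wild-derived strain. Of the 5 old mice, 3 had a BL6 mother and a CAST father (101, 101 and 104 weeks old) and 2 had a CAST mother and a BL6 father (both 103 weeks). Of the 6 young mice, 3 had a BL6 mother (all 9 weeks) and 3 a CAST mother (8, 8 and 9 weeks). The labels name no engineered allele and no treatment. By the cross, each autosome was present as 1 BL6 and 1 CAST copy. The file headers name the non-CAST copy i4fb, which the labels do not define and which was taken as BL6. Whether that parent line carried an engineered allele cannot be told from the labels. The mice are F1 hybrids, the tissue is bulk, and whether mice of a group were littermates is not given in the sources used here. P-values therefore measure the spread between these mice.

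In brain, fibrillar collagens are made mainly by fibroblasts of the meninges and of the spaces around larger vessels, and they carry the load of tissues by forming cross-linked fibrils. Type IV collagens form the network of the basement membrane around vessels and beneath the pia. The other kinds decorate fibrils, form beaded filaments or short-chain networks, or sit in the plasma membrane, and a few of them are made by neurons.

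The libraries held 111.1 to 214.8 M counts each, and collagens took 0.0385% to 0.0669% of them. No libraries of an age group were alike within sampling noise, since the smallest chi-square per gene between any pair was 45.6, where 1 is sampling noise. Markers of CA1, CA3 and dentate neurons were detected in every library. Markers of striatal neurons were high in 3 libraries (old 3, young 2 and young 6), whose sums were 1195 to 3533 CPM (gene counts scaled to 1 M library counts), while in the other libraries they were 189 to 422 CPM. The summed choroid plexus markers ran from 28.5 to 1070.1 CPM. Thalamic markers summed to 457 CPM in young 1 and to 38.8 to 134 CPM in the other libraries. Neocortical markers ran from 108 CPM (old 2) to 431 CPM (young 3), with 375 CPM in young 1. The libraries rich in striatal or choroid plexus markers are named again where they touch a result.

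**Figure D1:**
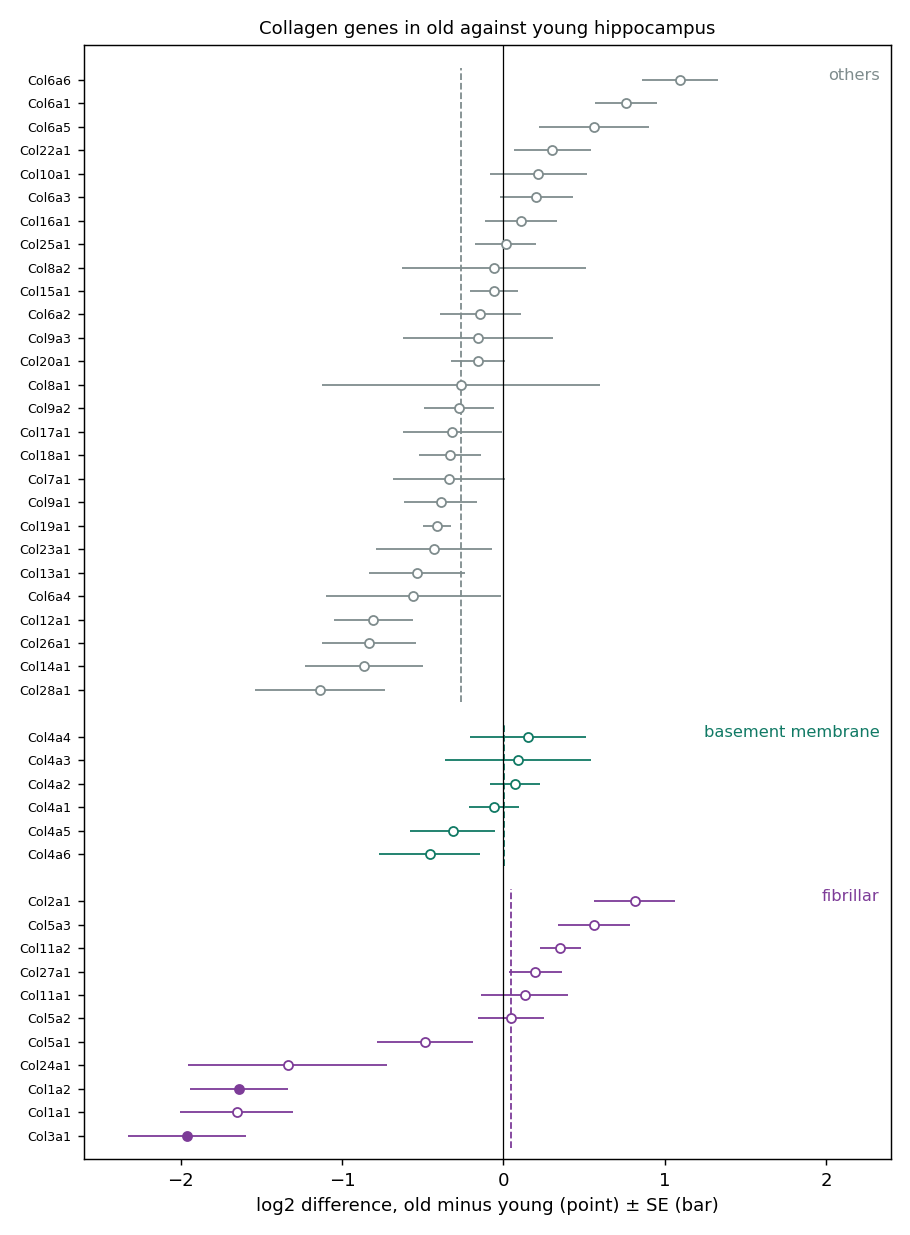
Difference between old and young mice for each of the 44 collagens, grouped by class. The horizontal axis is the log2 difference in normalised count (points) with its standard error (bars), filled points are the 2 genes that passed the test, and dashed lines are class medians. The fibrillar genes Col3a1, Col1a1 and Col1a2 lie at the left end and Col6a6 at the right, with the basement membrane genes near 0.

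Of the 44 collagens, 2 fibrillar genes were lower in the old hippocampus, and no collagen passed the test in the other direction. These were Col3a1, the chain of type III collagen, at 6.30 ± 4.50 CPM (SD, n = 6) in young and 1.53 ± 0.386 CPM (SD, n = 5) in old mice, and Col1a2, the second chain of type I collagen, at 19.9 ± 8.54 CPM in the 6 young and 6.33 ± 2.20 CPM in the 5 old mice. A gene passed the test, or was called, where its edgeR quasi-likelihood p, adjusted over all 30568 genes tested by the Benjamini-Hochberg method, was under 0.05. All 44 collagens were among the genes tested, 2 were called lower in old mice and 0 higher, where the call rate over all genes was 0.111% lower and 0.229% higher. An unadjusted p under 0.05 was reached by 14 of the 44 (31.8%, of which 9 were lower and 5 higher in old mice), against 12.5% of all genes.

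Over all 44 collagens the median log2 difference was -0.16, with 27 below and 17 above 0, while over all genes tested the median was -0.01, with 15982 below and 14586 above. The 11 fibrillar genes had a median of 0.05 and ran from -1.96 to 0.81, and 7 of them had an unadjusted p under 0.05 (4 lower, 3 higher in old mice). The 6 basement membrane genes had a median of 0.01 and ran from -0.46 to 0.15, and 0 of them had an unadjusted p under 0.05. The 27 other genes had a median of -0.26 and ran from -1.14 to 1.09, with 19 below and 8 above 0. When a mouse was left out in turn, the fibrillar median ran from -0.16 (without old 2) to 0.15 (without old 5), the basement membrane median from -0.34 (without old 2) to 0.080 (without old 1), and the median of the others from -0.46 (without old 3) to -0.076 (without old 1). The first 2 medians thus lay on either side of 0. In bulk tissue, fewer cells of a type and less RNA per cell cannot be told apart.

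Col3a1 and the type I genes were the fibrillar collagens with the largest differences. Col3a1 forms type III fibrils that mix with type I in soft tissue and vessel walls. Its normalised counts in the 5 old mice were 1.09, 1.53, 2.11, 1.29 and 1.63 CPM, while the young mice ran from 3.24 through a median of 4.84 to 15.4 CPM. Every old mouse lay below every young mouse, and 1 young mouse (young 5) lay far above the rest. The mean was 4.12-fold lower in old mice, with a log2 difference of -1.96 (SE 0.365, edgeR adjusted p = 0.0481).

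Col1a2 measured 4.00, 7.02, 9.42, 4.41 and 6.78 CPM in the old mice, and 12.4, 16.04 and 34.6 CPM as the lowest, median and highest of the young mice. The groups did not overlap, and the log2 difference was -1.64 (SE 0.306, edgeR adjusted p = 0.0485), or 3.14-fold between the means. Col1a1, which encodes the other type I chain, measured 3.73, 5.35, 8.62, 5.62 and 4.77 CPM in old mice against 9.14, 12.4 and 31.1 CPM in young mice. All old mice were below all young mice for Col1a1 too, with a log2 difference of -1.65 (SE 0.350), but its edgeR adjusted p of 0.0891 missed the threshold and it was called under 2 of 21 alternatives. Of the 44 collagens, 4 had groups that did not overlap with old mice lower (0.71% of all genes) and 1 with old mice higher (1.14% of all genes).

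Both calls stood close to the threshold. The direction was the same under all 21 alternatives tried for each gene, with log2 differences from -2.19 to -1.40 for Col3a1 and from -2.04 to -1.28 for Col1a2, but each was called under 8 of the 21. Without old 1, 2, 3, 4 or 5, or without young 2, 3, 4 or 6, neither gene was called, with edgeR adjusted p up to 0.201 for Col3a1 and 0.178 for Col1a2.

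**Figure D2:**
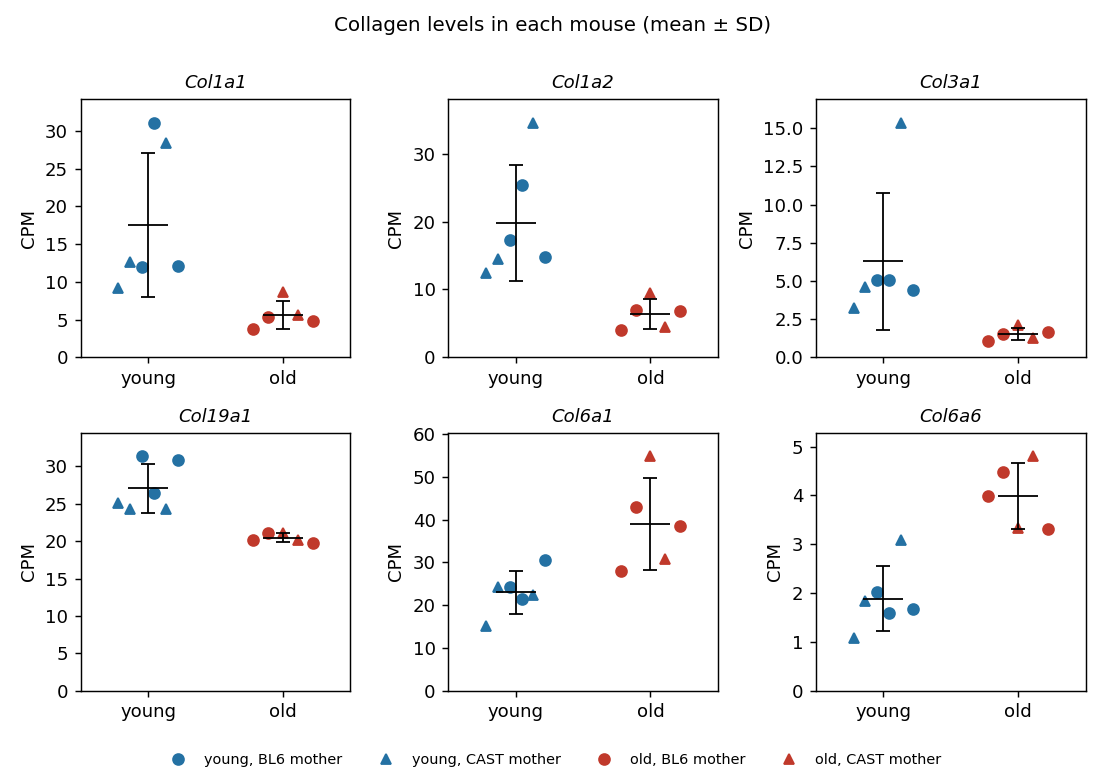
Normalised counts (CPM) of 6 collagens in each mouse, with circles for mice of a BL6 mother, triangles for mice of a CAST mother, and black bars for the mean ± SD of 6 young and 5 old mice. Old mice lie below all young mice for Col1a1, Col1a2, Col3a1 and Col19a1 and above all young mice for Col6a6, while the ranges of Col6a1 overlap.

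The promoter windows of Col1a2 and Col3a1 are shown because these are the genes that passed the test. RefSeq windows of 250 bases before to 50 after the start site (build GRCm38.p6) were at hand for 35 collagens, in 38 windows. Capitals mark CCAAT, the GC box GGGCGG and TATAAA on either strand, so that CCAAT can also read ATTGG and GGGCGG can read CCGCCC. Col1a2 is at chr6:4505368-4505667 on the plus strand, and Col3a1 at chr1:45311288-45311587 on the plus strand.
Col1a2: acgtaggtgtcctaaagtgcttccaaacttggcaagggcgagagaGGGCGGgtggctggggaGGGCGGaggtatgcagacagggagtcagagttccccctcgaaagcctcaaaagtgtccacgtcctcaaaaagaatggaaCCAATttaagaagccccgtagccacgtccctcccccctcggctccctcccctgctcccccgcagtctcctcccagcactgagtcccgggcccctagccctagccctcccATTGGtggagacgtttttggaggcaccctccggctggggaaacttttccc
Col3a1: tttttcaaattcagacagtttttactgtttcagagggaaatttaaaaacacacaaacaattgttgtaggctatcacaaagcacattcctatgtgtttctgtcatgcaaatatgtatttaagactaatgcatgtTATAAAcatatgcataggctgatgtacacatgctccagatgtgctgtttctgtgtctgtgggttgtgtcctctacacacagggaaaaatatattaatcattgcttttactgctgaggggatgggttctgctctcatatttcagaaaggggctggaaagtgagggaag

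The Col1a2 window held 2 CCAAT and 2 GC box matches and no TATAAA, while the Col3a1 window held 1 TATAAA and neither of the others. CCAAT was present in 13 of the 38 collagen windows (34.2%) and in 37.4% of all 32851 windows, and TATAAA in 5 of 38 (13.2%) and 13.6%. The GC box was present in 23 of 38 collagen windows (60.5%) and in 35.7% of all windows. These are letter matches and not measured sites. Col1a1 had no entry in the table.

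The remaining fibrillar genes spanned both directions without a call. Col2a1, best known from cartilage, had a log2 difference of 0.81 (SE 0.252, edgeR adjusted p = 0.279), and Col5a3, a minor type V chain, of 0.56 (adjusted p = 0.360). Col24a1, a minor fibrillar chain, had -1.34 with a wide SE of 0.614 (adjusted p = 0.400). Col5a2, Col11a1 and Col27a1 lay between 0.05 and 0.20.

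Per unit of length, the fibrillar gene with the highest level was Col11a2, a type XI chain that sits inside fibrils, at a mean of 10.2 TPM (length-corrected levels that sum to 1 M per library) over 11 mice, followed by Col1a1 at 3.57 TPM. Col11a2 measured 28.6, 43.5, 44.0, 42.6 and 30.9 CPM in old mice and 25.4, 29.9 and 34.2 CPM (lowest, median, highest) in young mice. The ranges overlapped, with a log2 difference of 0.35 (SE 0.126, edgeR adjusted p = 0.335). Col5a1, whose protein starts the assembly of type I fibrils, measured 5.35, 9.09, 13.3, 8.68 and 11.8 CPM in old mice and 6.68, 13.6 and 23.8 CPM in young mice, which also overlapped (log2 difference -0.49, adjusted p = 0.510). Fibrillar genes together made up 19.6% ± 3.02 (SD, n = 6) of collagen TPM in young and 16.7% ± 1.32 (SD, n = 5) in old mice.

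The basement membrane class held the best expressed collagen of the hippocampus, Col4a2, and showed no call. Col4a2 and Col4a1, whose products form the common type IV network, had mean levels of 21.7 and 14.6 TPM, and the 6 type IV genes made up 26.4% ± 2.82 of collagen TPM in young and 27.1% ± 2.30 in old mice. Col4a1 measured 39.3, 65.0, 54.9, 51.1 and 45.2 CPM in old mice and 37.9, 54.1 and 71.9 CPM in young mice, with a log2 difference of -0.06 (SE 0.153, edgeR adjusted p = 0.903). Col4a2 measured 52.1, 89.0, 78.4, 73.2 and 64.0 CPM in old mice and 52.1, 66.4 and 86.3 CPM in young mice, with a log2 difference of 0.07 (SE 0.155, adjusted p = 0.879). For both genes the old mice lay within or next to the young range.

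Of the less expressed type IV genes, Col4a5 measured 2.33, 5.59, 4.34, 2.91 and 2.31 CPM in old mice and 3.23, 4.32 and 6.48 CPM in young mice (log2 difference -0.31, edgeR adjusted p = 0.633). Col4a4 measured 2.14, 8.01, 4.56, 2.35 and 3.46 CPM in old mice and 1.67, 3.65 and 5.10 CPM in young mice (log2 difference 0.15, adjusted p = 0.892). The products of Col4a3, Col4a4 and Col4a5 assemble together, best known from the kidney glomerulus. Col4a3 had a log2 difference of 0.09 and Col4a6 of -0.46, neither called. Col4a3, at 1.51 CPM on average in young and 1.64 CPM in old mice, overlaps C430014B12Rik on the opposite strand (8.98 CPM on average), so its level and its allelic share are uncertain.

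The type IV genes lie in head-to-head pairs, and the members of a pair varied together across mice. Col4a1 and Col4a2 start 21 bases apart on chromosome 8, Col4a3 and Col4a4 start 72 bases apart on chromosome 1, and Col4a5 and Col4a6 start 1309 bases apart on the X chromosome. Across 11 mice the log2 CPM of Col4a1 and Col4a2 had a Pearson r of 0.835 and a Spearman rho of 0.800 (permutation p = 0.0017 and 0.00463, adjusted over 12 chain pairs to 0.00291 and 0.00794), and r was 0.831 without young 3 and young 5. Col4a3 and Col4a4 had an r of 0.971 and a rho of 0.973 (both permutation p = 1e-05, the smallest 100000 resamples can give, adjusted 6e-05), with r = 0.955 without old 1 and old 2. Col4a5 and Col4a6 had an r of 0.916 and a rho of 0.882 (permutation p = 9e-05 and 0.0008, adjusted 0.00018 and 0.0016), with r = 0.846 without old 5 and young 5. Within the 6 young mice, r of the pairs in this order was 0.794, 0.965 and 0.739. The exact permutation p, adjusted over 12 pairs, was 0.105, 0.0167 and 0.137, so by r only Col4a3 with Col4a4 passed there. By rho, at 0.771, 0.886 and 0.543, none of the pairs passed (exact permutation p adjusted to 0.206, 0.133 and 0.446). Chains on separate chromosomes could vary together too. The type VIII genes Col8a1 and Col8a2 had an r of 0.953 and a rho of 0.936 (permutation p adjusted to 0.000144 and 0.00016). Col5a1 with Col5a2, Col11a1 with Col11a2, Col6a2 with Col6a3 and Col9a1 with Col9a2 had r from -0.08 to 0.529. Whether head-to-head position played a part was not tested. Col4a3 and Col4a4, like Col8a1 and Col8a2, also followed the choroid plexus markers, as given below.

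The windows of Col4a1 (chr8:11312777-11313076, minus strand) and Col4a2 (chr8:11312555-11312854, plus strand) are shown because they share 78 bases, chr8:11312777-11312854, read in opposite directions. Each shared base lies at or after the start site of at least 1 of these paired genes, so no shared base is upstream of both. Capitals mark the same motifs as above.
Col4a1: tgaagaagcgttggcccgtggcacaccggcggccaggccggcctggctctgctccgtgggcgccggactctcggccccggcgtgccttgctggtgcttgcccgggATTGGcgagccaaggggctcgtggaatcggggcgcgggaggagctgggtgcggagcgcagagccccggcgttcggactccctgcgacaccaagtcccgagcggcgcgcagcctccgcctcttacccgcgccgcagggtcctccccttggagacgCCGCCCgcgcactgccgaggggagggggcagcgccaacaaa
Col4a2: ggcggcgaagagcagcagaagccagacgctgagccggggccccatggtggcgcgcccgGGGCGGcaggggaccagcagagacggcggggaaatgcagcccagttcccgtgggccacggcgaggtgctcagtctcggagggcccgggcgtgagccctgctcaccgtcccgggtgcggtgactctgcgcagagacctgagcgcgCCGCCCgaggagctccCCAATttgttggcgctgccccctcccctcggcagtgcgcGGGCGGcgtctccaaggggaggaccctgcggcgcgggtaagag

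The Col4a1 window held 1 CCAAT and 1 GC box match, and that of Col4a2 held 1 CCAAT and 3 GC box matches. The annotated Col4a1 and Col4a2 genes also overlap by 22 bases. How reads in overlapping genes were counted is not given in the sources used here.

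Among the fibril-associated collagens, whose short helices bind to the surface of fibrils, 7 of 9 were below 0 and 2 above, with a median of -0.27 and no call. Col19a1, which is known to be made by hippocampal interneurons and to act at their synapses, had the smallest p of the 9. It measured 20.2, 21.1, 21.1, 20.2 and 19.8 CPM in old mice, against 24.2, 25.8 and 31.4 CPM in young mice. All old mice were below all young mice, and the old mice spanned a narrow range. The log2 difference was -0.41 (SE 0.0876, edgeR adjusted p = 0.0924), or 1.32-fold between means. It was called by DESeq2 (adjusted p = 0.000566) and under none of the other alternatives. The summed interneuron markers were 539 to 690 CPM in the 6 young and 560 to 709 CPM in the 5 old mice.

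Col12a1 and Col14a1, which bind to type I fibrils, had log2 differences of -0.81 (edgeR adjusted p = 0.274) and -0.86 (adjusted p = 0.378). Col9a3, a type IX chain, varied widely between mice, at 7.05, 28.5, 28.3, 8.55 and 10.0 CPM in old mice and 7.70, 15.9 and 34.95 CPM in young mice. Its range was as wide within each age as across ages, and its log2 difference was -0.16 (SE 0.467, adjusted p = 0.915). The others of the kind ran from -0.39 for Col9a1 to 0.30 for Col22a1.

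Among the type VI genes, whose products form beaded filaments, none was called. Col6a6 had the largest positive difference of the 44 collagens, and Col6a1 the third after the fibrillar Col2a1. Col6a6, an alternative chain to that of Col6a3, measured 4.00, 4.48, 3.33, 4.80 and 3.32 CPM in old mice and 1.08, 1.76 and 3.08 CPM in young mice. Every old mouse was above every young mouse, with a log2 difference of 1.09 (SE 0.238, edgeR adjusted p = 0.0994), or 2.12-fold between means. It was called under 3 of the 21 alternatives (DESeq2, with a term for fibroblast markers, and without young 5).

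Col6a1, a core chain of type VI, measured 28.0, 42.9, 54.9, 30.9 and 38.4 CPM in old mice and 15.2, 23.2 and 30.7 CPM in young mice. Only the highest young mouse overlapped the old range, and the log2 difference was 0.76 (SE 0.195, edgeR adjusted p = 0.183). DESeq2 called it (adjusted p = 0.0315), and none of the other alternatives did. Col6a2, its partner chain in the same filament, measured 3.69, 4.92, 8.81, 4.02 and 5.98 CPM in old mice and 3.72, 6.03 and 8.48 CPM in young mice. These ranges overlapped almost wholly (log2 difference -0.14, adjusted p = 0.849). The log2 differences of Col6a3, Col6a5 and Col6a4 were 0.21, 0.56 and -0.56, none called.

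The partner chains Col6a1 and Col6a2 stood in a different ratio in old and young mice. The ratio of Col6a1 TPM to Col6a2 TPM was 14.4, 16.6, 11.8, 14.6 and 12.2 in the old mice and 6.80 to 7.77 in the young mice. The old mean of 13.9 ± 1.93 (SD, n = 5) was set against a young mean of 7.29 ± 0.465 (SD, n = 6), with no overlap. The log2 ratio differed by 0.92, at a two-sided exact permutation p of 0.00216, the smallest that all splits of 5 and 6 mice can give, and 0.0173 when adjusted over the 8 chain ratios computed. The difference was 1.01 in mice of BL6 mothers and 0.81 in mice of CAST mothers (exact permutation p = 0.1 in each, the smallest their numbers allow). These ratios were chosen after the data had been seen.

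Within the 6 young mice Col6a1 and Col6a2 had an r of 0.982 (exact permutation p = 0.00556, adjusted over 12 pairs to 0.0167). Their rho there was 0.829, which did not pass (exact permutation p = 0.0583, adjusted 0.175). Over all 11 mice r was 0.452 (permutation p = 0.163). The other 7 ratios showed no difference past the threshold. Col1a1 over Col1a2 was 1.63 ± 0.358 in young and 1.74 ± 0.420 in old mice (exact permutation p = 0.630). Col4a1 over Col4a2 was 0.711 ± 0.0928 in young and 0.637 ± 0.0213 in old mice (exact permutation p = 0.121).

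**Figure D3:**
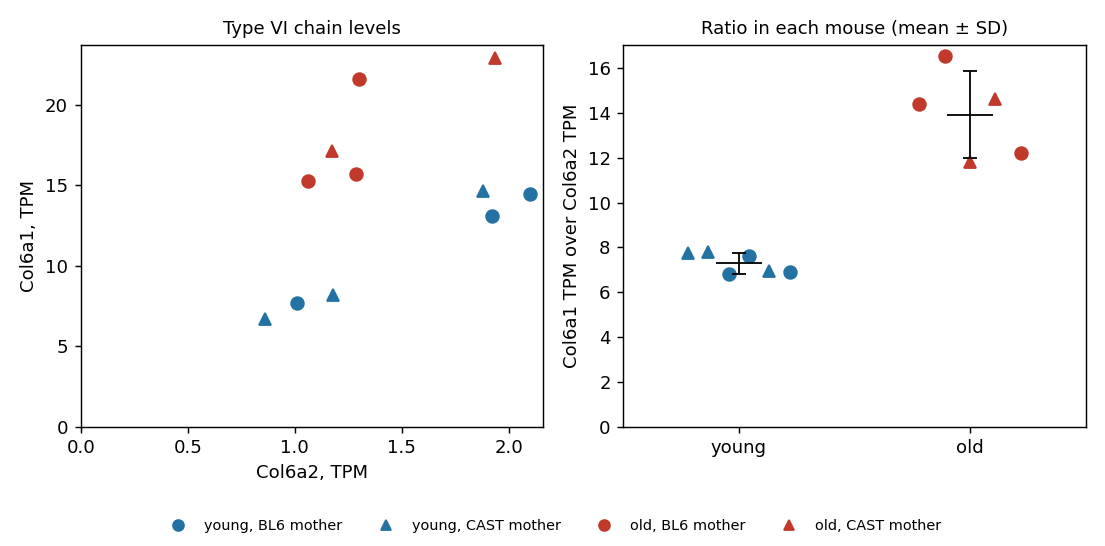
Left, TPM of Col6a1 against TPM of Col6a2 in each mouse. Right, the ratio of the 2 values by age, with bars for the mean ± SD of 6 young and 5 old mice, where all old mice (11.8 to 16.6) lie above all young mice (6.80 to 7.77).

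Transmembrane collagens are anchored in the plasma membrane, and Col25a1, made by neurons and found in amyloid plaques, was the second best expressed collagen at 17.5 TPM. It measured 129.8, 114, 102, 103 and 109 CPM in old mice and 66.6, 116 and 145 CPM in young mice. The old mice lay inside the young range, with a log2 difference of 0.02 (SE 0.190, edgeR adjusted p = 0.983). Col13a1, Col17a1 and Col23a1 had log2 differences of -0.53, -0.32 and -0.43, none called. The multiplexins Col15a1 and Col18a1, which sit at basement membranes, had -0.06 and -0.33, and Col18a1 overlaps Slc19a1 (8.17 CPM on average) on the opposite strand. Col7a1, the anchoring fibril chain, had -0.34, Col26a1 -0.83 and Col28a1, the least expressed collagen at 0.201 TPM, -1.14, again without a call.

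Short-chain collagens varied between libraries far more than between ages. Col8a1, a chain of the type VIII network, ranged from 0.531 to 13.2 CPM in old mice and from 1.18 to 13.8 CPM in young mice. Col8a2, its partner, ranged from 3.04 to 17.5 CPM and from 3.08 to 17.7 CPM. Col10a1, best known from growing cartilage, had a log2 difference of 0.22, which is uncertain because the gene overlaps Nt5dc1 (2.61 CPM on average) on the opposite strand. None of the 3 was called.

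Col8a1, Col8a2, Col9a3, Col4a3 and Col4a4 followed the summed markers of the choroid plexus, the tissue that secretes cerebrospinal fluid and borders the hippocampus. All 11 markers of that list were detected in every library, and their sum was 32.6, 1070.1, 941, 37.3 and 131 CPM in the old mice and 28.5 to 1038 CPM in the young mice. Of these sums, the marker Ttr gave 880 CPM in old 2, 771 CPM in old 3 and 761 CPM in young 2. In old 1 it gave 5.63 CPM and in young 5 4.17 CPM. Relations with this sum thus rest in large part on Ttr, and a sum without it was not tested. Between log2 CPM of the gene and log2 of the sum across 11 mice, r was 0.973 for Col8a1, 0.979 for Col8a2, 0.974 for Col9a3, 0.942 for Col4a3 and 0.920 for Col4a4, and rho was 0.936, 0.909, 0.955, 0.945 and 0.982 in that order. The permutation p adjusted over 88 relations (44 collagens with the sums of each of 2 marker lists) was at most 0.000528 for r and 0.00422 for rho. Without old 1 and young 5, the mice farthest from the median sum, r ran from 0.886 to 0.984.

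**Figure D4:**
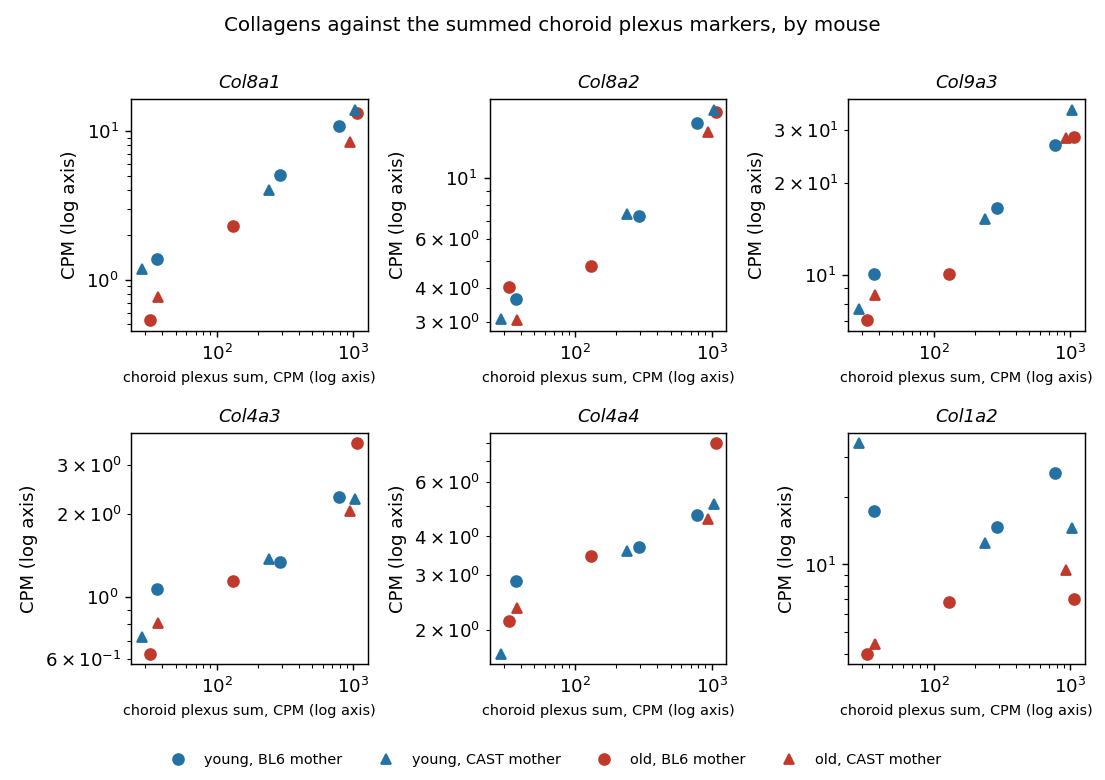
CPM of 6 collagens against the summed CPM of 11 choroid plexus markers in each mouse, both on log axes. Col8a1, Col8a2, Col9a3, Col4a3 and Col4a4 rise with the sum in old and young mice alike, whereas Col1a2 is split by age.

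The age differences of Col3a1 and Col1a2 were as large with a term for the mean log2 level of the choroid plexus markers in the fit (-1.91 and -1.64), but the edgeR adjusted p became 0.0571 and 0.0623. Fibroblasts of the meninges and vessels are the known source of these chains, and all 20 fibroblast markers were tested and detected in every library. Of the 20, 15 were below and 5 above 0, with a median log2 difference of -0.49, and none was called. Their sum ran from 112 to 209 CPM in old and from 97.7 to 274 CPM in young mice. The smallest p values were those of Tbx18 (-0.79), Ogn (-0.70), Slc22a6 (-0.83) and Ranbp3l (-0.54), with edgeR adjusted p from 0.384 to 0.402. With a term for the mean log2 level of the fibroblast markers, Col3a1 had a log2 difference of -1.40 (adjusted p = 0.00297), Col1a2 -1.28 (0.0199), Col1a1 -1.27 (0.0954) and Col6a6 1.38 (0.0350).

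Within the 6 young mice, r with the fibroblast sum was 0.815 for Col3a1, 0.763 for Col1a2 and 0.732 for Col1a1 (exact permutation p from 0.0625 to 0.1, all 0.382 when adjusted over 88 relations). The X-linked pair Col4a5 and Col4a6 followed that sum over all 11 mice, with r of 0.815 and 0.816 and rho of 0.800 and 0.836 (adjusted permutation p = 0.0355 and 0.0352 for r, 0.0603 and 0.0333 for rho), and r of 0.931 and 0.875 without young 1 and young 5. The fibroblast and choroid plexus sums were both high in some libraries, at 209 and 1070.1 CPM in old 2 and at 215.4 and 1038 CPM in young 2, whereas young 5 had the highest fibroblast sum (274 CPM) and the lowest choroid plexus sum (28.5 CPM). Igf2, 1 of the 20 fibroblast markers, gave 98.7 CPM of the fibroblast sum in old 2, 128 CPM in young 2 and 89.8 CPM in young 5. In old 1 it gave 20.5 of 112 CPM. Relations with the fibroblast sum thus rest in part on this gene, and a sum without it was not tested. Without young 1 and young 5, the genes that followed the choroid plexus also had a high r with the fibroblast sum (0.924 for Col8a1, 0.894 for Col8a2, 0.928 for Col9a3, 0.934 for Col4a3 and 0.8998 for Col4a4), and without old 1 and young 5 the r of Col4a5 with the choroid plexus sum was 0.808. The marker terms in the fits rest on the same 2 lists. Pericyte and smooth muscle markers had a median of -0.25 over 12 genes and endothelial markers -0.08 over 10 genes, with no call. Striatal markers were lower in old mice in 10 of 10 genes by direction (median -1.70), with no call. Also without a call, 10 of 11 choroid plexus markers (median -0.21), 6 of 7 neocortical markers (-0.37) and 5 of 6 Cajal-Retzius markers (-0.34) were below 0. On the other side, again without a call, all 5 microglia markers (median 0.42), all 4 CA1 markers (0.59), 8 of 9 CA3 and CA2 markers (0.44), all 5 red blood cell markers (0.55) and all 6 ependymal markers (0.31) were above 0. The summed microglia markers were 226 to 271 CPM in old and 140 to 227 CPM in young mice. Of the other lists, 4 of 8 progenitor and newborn neuron markers (Draxin, Top2a, Eomes and Dcx) and 2 of 7 oligodendrocyte precursor markers (Gpr17 and Bmp4) were called, all lower in old mice, and the part of any of these lists in the collagen differences was not tested. Without the 3 libraries rich in striatal markers, the log2 differences of Col3a1 and Col1a2 were -2.19 and -2.04, and neither was called (adjusted p = 0.277 and 0.128). Their log2 differences were -1.80 and -1.71 in mice of BL6 mothers, and -2.14 and -1.53 in mice of CAST mothers, again without a call in these smaller sets.

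Because Col1a1, Col1a2 and Col3a1 separate by age, their relations are given within the young mice alone. There r was 0.936 for Col1a1 with Col1a2 (exact permutation p = 0.0167, adjusted 0.04), 0.887 for Col1a2 with Col3a1 (p = 0.00278, adjusted 0.0167) and 0.706 for Col1a1 with Col3a1 (p = 0.0611, adjusted 0.105). By rho, with values of 0.714, 0.943 and 0.771, none of these pairs had an adjusted p under 0.05. The type V pair Col5a1 and Col5a2 had no relation past the threshold over 11 mice (r = -0.08, permutation p = 0.814).

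The genes that make, trim, break down and read collagen gave no call. Of 24 genes for folding, modification and export, 15 were above and 9 below 0 with a median of 0.07, led by P3h4 (0.40), Fkbp10 (0.34), Creb3l1 (0.44) and Mia2 (-0.18). Of 14 genes for procollagen cleavage and cross-linking, 7 were above and 7 below 0, with Lox, the cross-linking lysyl oxidase, at -0.96, the propeptidase Adamts2 at -0.34, Adamts14 at 0.62 and Tll1 at -0.22. Of 15 genes for degradation and its inhibitors 13 were tested, with 4 above and 9 below 0. The protease genes Ctsk and Fap had -0.45 and -1.08, the uptake receptor gene Mrc2 had -0.61 and the inhibitor gene Timp4 had 0.28. The smallest edgeR adjusted p in these lists was 0.279, that of P3h4.

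Of 11 collagen receptors 10 were tested, with 5 above and 5 below 0. Adgrg1, which binds type III collagen, had 0.35, the integrin chain gene Itgb1 -0.36, Ddr2, a receptor kinase for fibrillar collagen, -0.55 and Lair1 0.29. Of 16 fibril-associated proteoglycans and glycoproteins, 6 were above and 10 below 0 (median -0.29), with Aspn at -0.90, Tnxb at 0.93, Prelp at 0.77 and Ogn at -0.70. This list shares 5 genes with the fibroblast markers (Bgn, Dcn, Fmod, Lum and Ogn). Of 19 laminins and other basement membrane proteins, 6 were above and 13 below 0 (median -0.11), with Lama4 at -0.82, Nid1 at -0.72 and Npnt at -0.62. None of these was called, with a smallest edgeR adjusted p of 0.202, that of Aspn.

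Cross and its interaction with age left no collagen past the test. Between mice of CAST and of BL6 mothers, 0 of 44 collagens were called, where 0.206% of all genes were. The smallest p was that of Col22a1, with a log2 difference of -0.73 (CAST minus BL6 mother, edgeR adjusted p 1.00). The interaction of age and cross called 0 collagens and 0% of all 31355 genes tested, with a smallest collagen adjusted p of 0.418.

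Reads that carry a strain difference let the BL6 and CAST copies of a gene be measured apart in the same bulk library. The allelic table held 39.7 to 76.9 M reads per mouse, and all 42 autosomal collagens reached a mean of 10 such reads. The share of BL6 reads can also be moved by unequal mapping of the strains' reads, and how reads were assigned to a copy is not given in the sources used here. Of the 42, 13 were called with the BL6 copy higher and 19 with the CAST copy higher, where 40.9% of all 24707 genes tested were called for BL6 and 24.6% for CAST. A call in either direction was thus made for 76.2% of collagens and 65.5% of all genes, and the copies differed by more than 1 on the log2 scale in 21.4% of collagens and 12.3% of all genes.

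By class, the CAST copy was higher in all 4 autosomal type IV genes, whereas the fibrillar genes had 5 calls for BL6 and 3 for CAST among 11, and the others 8 for BL6 and 12 for CAST among 27. The 4 type IV genes lie in only 2 head-to-head pairs. Col4a3 was above 50% in young 2 (56.2%), and the shares of Col4a3 and Col4a4 followed the choroid plexus markers, as given below. Col4a1 had a BL6 share of 42.7% ± 1.11 (SD, n = 11) and Col4a2 of 42.9% ± 1.83, on 2527 to 7239 reads per mouse. Both stayed under 50% in every mouse. Col1a2 had 56.0% ± 4.10 and Col3a1 36.2% ± 6.19, so that these chains of mixed fibrils leaned to opposite copies, while Col1a1 was at 49.5% ± 3.30 and not called.

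The largest shares of the BL6 copy were those of type VI and minor chains. Col6a4 had a BL6 share of 74.7% (log2 BL6 over CAST 1.96), Col26a1 71.8% (1.39), Col6a6 69.0% (1.27), Col5a1 69.6% (1.26) and Col20a1 67.8% (1.07). Toward CAST, Col6a3 had 25.2% (-1.56), Col4a4 23.7% (-1.53), Col5a2 29.5% (-1.35), Col6a5 31.9% (-1.16) and Col23a1 34.1% (-0.93). All 10 had an edgeR adjusted p under 0.05. The neighbouring type VI genes on chromosome 9 leaned to both sides, with Col6a5 toward CAST and Col6a4 and Col6a6, on either side of it, toward BL6. Col20a1 overlaps the gene 9230112E08Rik on the same strand (13.1 CPM on average), so its share is uncertain.

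**Figure D5:**
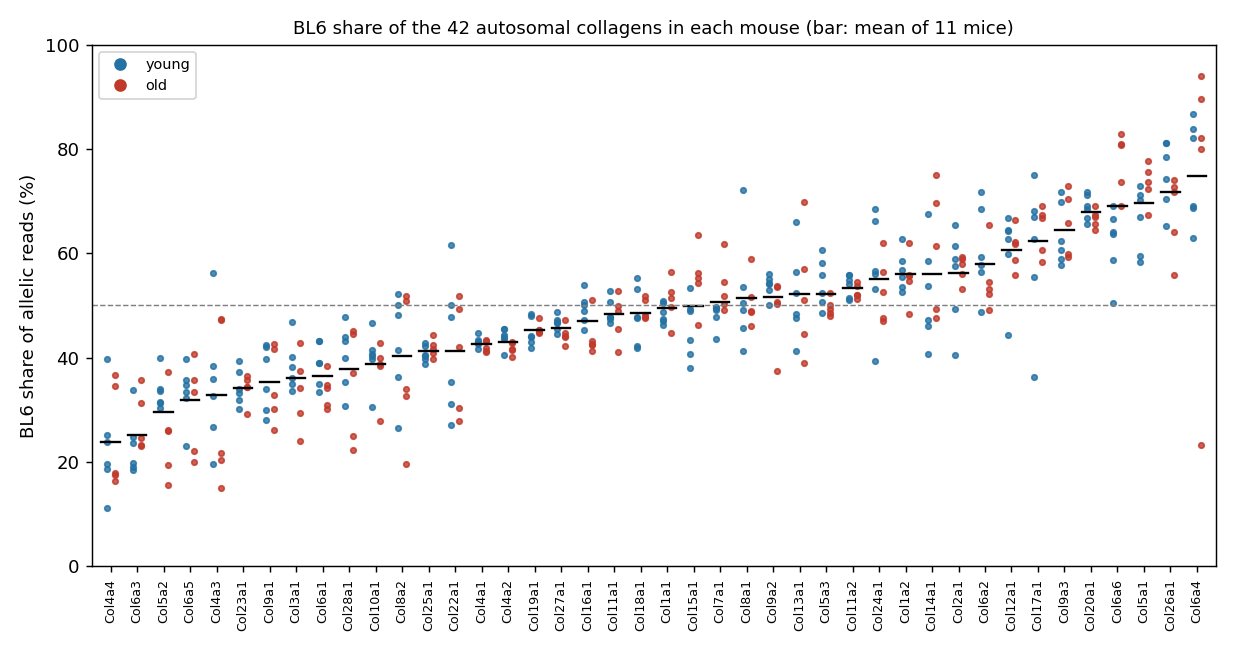
BL6 share of allelic reads (%) for each of the 42 autosomal collagens, with a point for each mouse (blue young, red old), a black bar for the mean of 11 mice and a dashed line at 50%. The means run from Col4a4 at 23.7% to Col6a4 at 74.7%, and the old points of Col6a6 lie mostly above its young ones.

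With age, the share of no autosomal collagen passed the test, where 0.166% of all genes did. Col6a6 came nearest. Its BL6 share was 80.7%, 82.8%, 69.0%, 80.9% and 73.6% in old mice and ran from 50.5% to 69.1% in young mice, on 92 to 419 reads per mouse. The lowest old mouse lay just below the highest young mouse, and the other old mice lay above all young mice. The mean was 77.4% ± 5.88 (SD, n = 5) in old and 62.1% ± 6.65 (SD, n = 6) in young mice, with log2 BL6 over CAST higher by 1.00 in old mice (SE 0.204, edgeR adjusted p = 0.0522). When a mouse was left out in turn, that p ran from 0.0206 to 0.354. The BL6 copy gave 2.01 reads per 1 M allelic reads in young and 5.14 in old mice (2.56-fold), and the CAST copy 1.20 and 1.47 (1.23-fold).

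Col5a2 and Col5a1 came next. The BL6 share of Col5a2 was 33.4% ± 3.48 in young and 24.8% ± 8.26 in old mice (log2 -0.72, edgeR adjusted p = 0.157), and that of Col5a1 66.5% ± 6.22 and 73.3% ± 3.90 (log2 0.51, adjusted p = 0.255). For Col3a1, Col1a2, Col1a1, Col19a1 and Col6a1 the age difference in total counts had the same direction on both copies. That of Col6a6 lay mostly on the BL6 copy (2.56-fold against 1.23-fold on the CAST copy). On its CAST copy the ages overlapped, at 0.837 to 1.60 reads per 1 M allelic reads in young and 1.13 to 2.01 in old mice. Reads per 1 M allelic reads were higher in young mice by 4.75-fold on the BL6 and 3.79-fold on the CAST copy for Col3a1, by 3.22-fold and 3.17-fold for Col1a2, by 2.62-fold and 2.89-fold for Col1a1, and by 1.33-fold and 1.36-fold for Col19a1. For Col6a1 they were higher in old mice by 1.53-fold on the BL6 and 1.86-fold on the CAST copy.

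Of the 42 autosomal collagens, Col22a1 alone was called for the parent of origin, with the maternal copy higher, where 0.874% of all genes were called. It encodes a collagen known from the junction of muscle and tendon and lies at chr15:71795795-72034227 (GRCm38, minus strand). The BL6 share was 42.1%, 51.8%, 49.2%, 47.8%, 50.1% and 61.7% in the 6 mice of a BL6 mother and 30.3%, 27.9%, 35.2%, 31.1% and 27.0% in the 5 mice of a CAST mother. The 2 sets did not overlap, with means of 50.4% and 30.3%. Maternal over paternal was 0.64 on the log2 scale (SE 0.0836, edgeR adjusted p = 3.13e-05), and 0.58 to 0.68 when a mouse was left out in turn. The CAST copy was also higher by strain (log2 BL6 over CAST -0.62).

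On chromosome 15 the nearest annotated gene ends of Kcnk9, Trappc9 and Peg13, a known imprinted cluster, lie 467, 555 and 771 kb away. Col22a1 overlaps the antisense gene Gm16308 (0.456 CPM on average), and without the strand setting of the counting, reads of the overlap cannot be told apart. Its total level was not called for age (log2 0.30, edgeR adjusted p = 0.611). The next collagens by p were Col6a4, with log2 maternal over paternal of -0.74 (adjusted p = 0.276), and Col5a2, with 0.18 (adjusted p 1.00).

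The genes Col4a5 and Col4a6 are on the X chromosome, where X inactivation can move the shares of many genes of a mouse together. The median BL6 share was taken over 522 X-linked genes in which every mouse had 20 or more allelic reads. Xist, Tsix and a short fixed list of other genes had been left out beforehand. This median ran from 20.3% to 56.5%. Col4a5 had a BL6 share of 40.4% ± 13.2 in old and 37.8% ± 14.1 in young mice (two-sided exact permutation p = 0.768), and Col4a6 of 50.3% ± 8.69 and 46.0% ± 14.2 (exact permutation p = 0.571). The shares also departed from the X median of the same mouse. Minus that median, Col4a6 averaged 8.86 ± 8.49 percentage points (SD) in old and 6.32 ± 5.32 in young mice. Col4a5 averaged -1.04 ± 9.16 in old and -1.84 ± 4.52 in young mice. After the subtraction, the exact permutation p between ages was 0.855 for Col4a5 and 0.554 for Col4a6. Neither share differed between the ages beyond the spread between mice, and these shares rest on 59 to 357 reads per mouse.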

How the data were processed

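Hippocampus RNA of 5 old and 6 young F1 mice was analysed from the deposited files. The submitters' processing notes name the tools bcl2fastq 2.20, Trim Galore 0.6.6, HISAT2 2.1.0, SAMtools 1.10 and featureCounts (Subread 2.0.0), and the build GRCm38. Not given in the sources used here are the strand setting, the annotation release and how reads were assigned to a copy. As values, the authors deposited whole-number counts per gene, counts per gene and allele, and TPM per gene. Allele columns named i4fb in the file headers were taken as the BL6 copy.

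Collagens were matched by symbol, and positions came from GENCODE M21, which held 55141 of the 55401 identifiers. Gene counts entered edgeR 4.0.16, run in R 4.3.3 (TMM scaling, filterByExpr, terms for mother strain and age, Benjamini-Hochberg adjustment over all genes tested). CPM are TMM-scaled, and SE is the absolute log2 difference over the square root of F. For autosomal genes averaging 10 or more allelic reads per mouse, allele counts were fitted with terms for mouse, BL6 allele, maternal allele and each by age. Alternatives were DESeq2 1.42.0, other size factors, no filter, single crosses, marker terms (mean log2 of CPM plus 0.1) and leaving out each mouse. Correlations used 100000 resamples (all 720 orders for 6 mice), and single values used exact permutation of all splits of 5 and 6 mice (scipy 1.17.1). Also used were matplotlib 3.10.9, pandas 2.3.3, numpy 2.4.6, Python 3.11.15, data.table (version 1.17.8) and limma 3.58.1. The edgeR fits of gene counts and of allele counts were tried on simulated data, and the permutation tests were not. The simulated allele counts had a fixed spread that was not taken from these data.

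The members, classes and lists were chosen with earlier results of these data known. Values by mouse are given for called collagens, the next 4 by p, the 4 highest in TPM of each class and the main type I, III, IV and VI chains. For alleles the 5 largest differences each way and the called or 3 smallest-p genes of the other terms are named, and of each list up to 4 genes by p (1 such gene is not reported here). Further collagens are given by value for completeness.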

Additional observations from a re-analysis of the deposited data

Results flagged for a closer look

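Among 52 groups of 5 or 6 mice examined for a value far from the rest, where chance alone marks about 1 in 20 groups, 2 held such a value. Col3a1 measured 15.4 CPM in young 5, and the next young mouse measured 5.09 CPM. Young 5 also had the highest sums of fibroblast (274 CPM), pericyte and smooth muscle (237 CPM) and endothelial markers (302 CPM) of all 11 mice. Without young 5, the log2 difference of Col3a1 was -1.55 (edgeR adjusted p = 0.0122). Col6a4 had a BL6 share of 23.2% in old 5, on 69 allelic reads, and the next lowest old mouse had 80.0%. Without old 5, log2 BL6 over CAST of Col6a4 was 2.28 in place of 1.96, and the gene was called in both cases.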

How the results depend on the processing

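Of the 44 collagens, 24 kept the direction of their age difference under all 21 alternatives, and 6 were called under at least 1. DESeq2 called 4 collagens lower and 2 higher in old mice and a fibroblast marker term 1 higher. BL6 mothers only, CAST mothers only, dropping the libraries rich in striatal markers and a choroid plexus term each called 0 lower, and leaving out a mouse gave 0 to 2 lower and 0 to 1 higher. Over all genes, 70 higher and 34 lower calls became 281 and 240 with DESeq2, 0 and 0 with CAST mothers only, 3 and 0 with BL6 mothers only, and 12 to 161 and 2 to 83 when a mouse was left out. In CAST mothers only, the median of the other collagens was 0.10.

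Small uncalled log2 differences turned direction, and the cause was not tested. For Col25a1 they were -0.000615 with DESeq2, -0.00109 with RLE and -0.00959 with upper-quartile size factors, -0.23 in CAST mothers only and -0.13 to 0.090 when a mouse was left out. For Col4a1 they were 0.053 in BL6 mothers only, 0.00322 without the striatum-rich libraries, 0.0107 with the fibroblast term and -0.21 to 0.0030 by mouse left out. Col6a2 had 0.32 in CAST mothers only and 0.0155 with the fibroblast term, and Col5a1 0.12 in CAST mothers only. With a mouse left out, Col9a3 ran from -0.57 to 0.12, Col4a2 from -0.051 to 0.19 and Col4a4 from -0.23 to 0.32.

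For alleles, Col1a1 had a log2 BL6 over CAST of 0.045 in old mice only and -0.083 to 0.031 by mouse left out. Collagens whose BL6 share differed with age numbered 1 (Col6a6) with each allele column's own total and 0 to 2 by mouse left out. The old minus young BL6 percent of Col4a5 ran from -1.97 to 6.70 by mouse left out. Within young mice, r was 0.706 for Col1a1 with Col3a1, 0.794 for Col4a1 with Col4a2, 0.739 for Col4a5 with Col4a6, 0.982 for Col6a1 with Col6a2, -0.47 for Col11a1 with Col11a2 and -0.18 for Col9a1 with Col9a2. The log2 Col6a1 to Col6a2 ratio differed by 1.01 in BL6 mothers only and 0.81 in CAST mothers only. Depth limits the shares of low genes, such as Col28a1 with 9 to 65 allelic reads per mouse.

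No paired analysis was possible because the labels give each mouse a number of its own, and the numbers used here within each age group (old 1, young 1) only name mice in accession order and pair none.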

Other observations

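The BL6 share of 4 of the 5 collagens whose level followed the choroid plexus markers also followed them, a relation examined after the data had been seen. In the order old 1 to old 5, the BL6 share of Col4a3 was 21.6%, 47.4%, 47.3%, 15% and 20.3%, and the highest shares belong to the libraries with the highest marker sums (old 2 and old 3). Col4a3 overlaps C430014B12Rik on the opposite strand (8.98 CPM on average), and with the strand setting of the counting not given, its share is uncertain. Col9a3 overlaps Tcfl5 (0.383 CPM). Across 11 mice, r between the BL6 share and log2 of the sum was 0.901 for Col4a3, 0.846 for Col4a4 and 0.899 for Col8a2, and rho was 0.836, 0.791 and 0.791. For Col9a3 the relation ran the other way, with r = -0.979 and rho = -0.936, and for Col8a1 r was -0.31. The permutation p of r, adjusted over these 5 relations, was 0.0007, 0.00144, 0.0007, 5e-05 and 0.380 in the order named. Without old 1 and young 5, r was 0.940, 0.889, 0.963, -0.976 and -0.53. Other collagens were not examined in this way.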
